A study of Mus musculus with 16 samples.

Results

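The 9 genes described here belong to 3 families of early response genes, the EGR, IER and GADD45 genes, and were chosen by name: *Egr1*, *Egr2*, *Egr3*, *Ier2*, *Ier3*, *Ier5*, *Gadd45a*, *Gadd45b*, and *Gadd45g*. All 9 were found among the 51912 genes of the count table, and 8 of them had enough counts to be tested in at least 1 comparison, all but *Egr3*. They were measured by bulk mRNA-Seq in lung ILC2s (group 2 innate lymphoid cells, tissue lymphocytes that release type 2 cytokines) of WT mice and of *Pac1-/-* mice. PAC1 is the phosphatase encoded by *Dusp2*, and *Pac1-/-* mice, on a C57BL/6J background, lack it in every cell rather than in ILC2s alone. ILC2s of each genotype were kept for 4 hours with IL-7, with IL-7 plus IL-33 (the IL-33 group), with IL-7 plus IL-33 plus CGRP (the CGRP group), or with IL-7 plus IL-33 plus NMU (the NMU group). IL-7 was therefore present in every group, and IL-33 in every group but the basal IL-7 group. The culture method of the study used IL-7 and IL-33 at 100 ng/mL and the neuropeptides CGRP (calcitonin gene-related peptide) and NMU (neuromedin U) at 500 ng/mL, on ILC2s of mice 6 to 8 weeks old. In that method sorted ILC2s were expanded for 1 to 2 weeks with IL-2 and IL-7 beforehand, and whether this was done for these libraries is not given in the sources used here. There were 2 libraries for each of the 8 groups and 16 in all, from about 500 sorted ILC2s each.

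Immediate early genes are transcribed within minutes of a stimulus from factors already present in the cell, and their mRNAs decay quickly. EGR proteins are zinc-finger transcription factors that bind GC-rich DNA, are induced through ERK and serum response factor or through calcium and NFAT, and in lymphocytes set activation and its brakes. The IER proteins are small products of stress and growth stimuli, and the GADD45 proteins bind the kinase MAP3K4 and cell cycle regulators and link stress to p38 and JNK signaling.

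The total count per library was 6764992 to 15963357. Levels are given as CPM (counts scaled to a common library size with edgeR's TMM factors), for which a floor of 3 counts, the number that a count of 0 still allows, equals 0.180 to 0.442 CPM. No molecular identifiers are described, so this floor covers counting error only. *Dusp2* was at 0 counts in 8 of 8 *Pac1-/-* libraries but also in 6 of 8 WT libraries, with at most 57 counts, so that its mRNA does little to check the genotype labels. Of 10 genes taken as ILC2 markers, *Gata3*, *Il1rl1*, *Rora*, *Il2ra*, *Klrg1*, and the pan-leukocyte gene *Ptprc* were at 495 CPM or more in every library. *Il7r* was at 304.5 to 409 CPM in the NMU libraries and at 629 to 1063 CPM in the others, *Areg* was at 83.7 to 521 CPM and *Thy1* at 25.6 to 108 CPM, and *Il17rb* was at 0 in 3 libraries. Markers of other cells were present in some libraries: the summed level of 3 B cell markers was 106 to 117 CPM in the *Pac1-/-* CGRP libraries and 0.627 to 16.3 CPM in the WT CGRP libraries, and the summed level of 3 epithelial markers was 174 to 295 CPM in the WT NMU libraries and 34.9 to 54.0 CPM in the *Pac1-/-* NMU libraries. *Sftpc* (171 and 96.2 CPM) and *Scgb1a1* (86.7 and 41.6 CPM) made up this excess, while *Epcam* was at 37.5 and 36.6 CPM in the WT NMU and at 25.3 and 51.3 CPM in the *Pac1-/-* NMU libraries. Of 5 myeloid markers, *Lyz2* was high in the WT NMU libraries (107 and 28.5 CPM, at most 1.27 CPM elsewhere), where *Csf1r* and *Itgam* were at 0. The T cell genes *Cd4* and *Cd8a* were at 0 in 15 and 16 libraries, though the sum of 5 T cell markers was 32.3 to 268 CPM through *Cd3g*, and the sum of 4 NK and ILC1 markers was at most 15.6 CPM. The share of counts on mitochondrial genes was 8.31% to 12.6% with CGRP, 3.94% to 7.96% with IL-33, 3.32% to 5.54% with NMU, and 8.60% to 10.2% with IL-7. In bulk RNA, fewer cells that express a gene and less RNA per cell cannot be told apart.

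Per kilobase of exon, *Gadd45b* stood above the other 8 genes, with a mean level over the 16 libraries of 330 CPM per kb. *Gadd45g* (59.2 CPM per kb), *Ier3* (56.7 CPM per kb), *Ier2* (42.6 CPM per kb), and *Ier5* (20.01 CPM per kb) followed. *Egr1* (3.56 CPM per kb), *Gadd45a* (2.06 CPM per kb), and *Egr2* (1.17 CPM per kb) were low, and *Egr3*, with 11 counts in all 16 libraries together, was at 0.0152 CPM per kb.

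**Figure D1:**
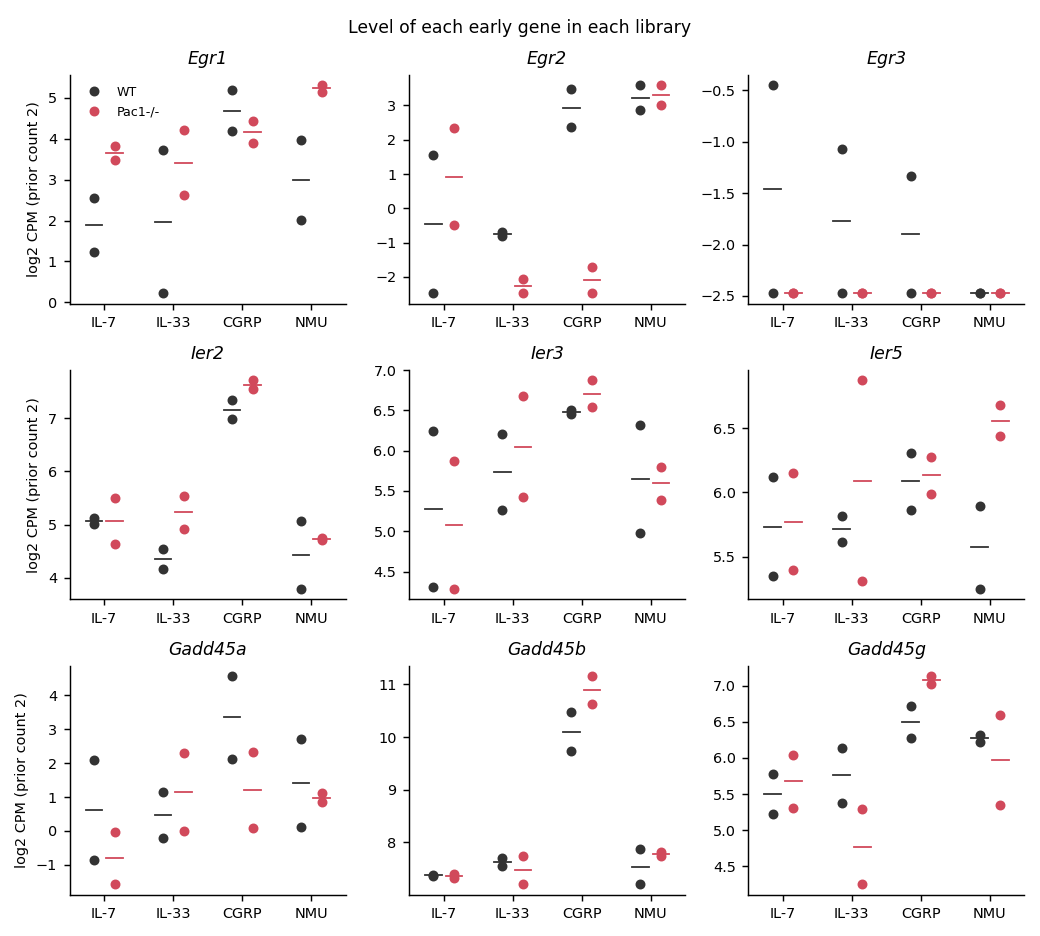
Each panel plots 1 gene, with the treatment on the x axis and the level in log2 CPM (prior count 2) on the y axis, each panel on its own scale. Points are libraries (black WT, red *Pac1-/-*) and lines are means of 2 libraries. *Gadd45b* and *Ier2* are high in the 4 CGRP libraries, *Egr2* is high in the 4 NMU and the 2 WT CGRP libraries, and *Egr3* is close to its floor throughout. *Egr2* in *Pac1-/-* IL-7 replicate 2 (2.33) is close to the lower WT CGRP library (2.38).

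The comparison of CGRP with IL-33 asks what the neuropeptide adds to an alarmin response at 4 hours. *Gadd45b* and *Ier2* rose with CGRP, and the other 6 genes tested did not pass the cutoff (fold change above 1.5 and adjusted *P* under 0.05). Across all 13160 genes tested, 202 rose and 28 fell. The share that rose was 1.53%, against which the 2 of 8 members are to be read. All 8 members had a positive log2 fold change, with a median of 1.64, where the median of all genes was -0.09. The share of all genes with a positive value was not counted. For *Ier5* the value was 0.15, and -0.058 without *Pac1-/-* IL-33 replicate 1. The 4 CGRP libraries lay above the 4 IL-33 libraries without overlap for 3 of the 8 members (*Gadd45b*, *Ier2*, and *Gadd45g*), and for 6.39% of all genes tested.

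*Gadd45b* is a stress sensor that binds MAP3K4 and is a known target of NF-κB. It lies at chr10:80930073-80932204 (GRCm38, plus strand, 1589 exonic bases in 3 blocks). Its level was 853 and 1423 CPM in the WT CGRP libraries and 2290 and 1594 CPM in the *Pac1-/-* CGRP libraries. With IL-33 alone it was 207 and 187 CPM in WT libraries and 215 and 149 CPM in *Pac1-/-* libraries. The lowest CGRP library was thus 3.64 times the highest of the 12 other libraries. The fitted difference between CGRP and IL-33 was 3.03 on the log2 scale (SE 0.287), or 8.15-fold (edgeR quasi-likelihood test, adjusted *P* = 0.00187). Fitted within a genotype, on 2 libraries against 2, the log2 fold change was 2.53 (SE 0.315) in WT and 3.502 (SE 0.341) in *Pac1-/-* libraries. Neither passed the cutoff there (edgeR, adjusted *P* = 0.231 and 0.107), in fits that called 0 of 10914 and 0 of 11625 genes, with 1394 genes at an unadjusted *P* under 0.05 in each. The B cell markers were highest in the *Pac1-/-* CGRP libraries and also present in WT CGRP replicate 2 (16.3 CPM). With IL-33, their sum was 0 in the WT libraries and 1.485 to 7.252 CPM in the *Pac1-/-* libraries. The sum of 3 mast cell and basophil markers also moved with CGRP, from 45.0 to 76.7 CPM in the IL-33 libraries to 77.8 to 189 CPM in the CGRP libraries, most of it *Cpa3*, while *Mcpt8* was at 0 in 15 of 16 libraries. The part of these markers, and of the mitochondrial share, in the differences between CGRP and IL-33 was not tested.

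By group, the order of *Gadd45b* levels was *Pac1-/-* CGRP (1942 ± 492 CPM, SD, n = 2), WT CGRP (1138 ± 403 CPM), *Pac1-/-* NMU (220 ± 9.55 CPM), WT IL-33 (197 ± 14.1 CPM), WT NMU (191 ± 61.7 CPM), *Pac1-/-* IL-33 (182 ± 47.0 CPM), WT IL-7 (166 ± 1.77 CPM), and *Pac1-/-* IL-7 (165 ± 6.86 CPM). Among the 6 groups without CGRP, neighbours in this order differed by less than the larger of their SDs, except *Pac1-/-* NMU and WT IL-33. Both CGRP groups lay above all of these.

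*Ier2* encodes a small nuclear protein induced by growth factors and stress. It is a gene of 1 exon at chr8:84661331-84662852 (GRCm38, minus strand). Its level with CGRP was 126 and 162 CPM in WT and 188 and 208 CPM in *Pac1-/-* libraries. With IL-33 it was 17.7 and 23.2 CPM in WT and 30.1 and 46.5 CPM in *Pac1-/-* libraries. Every CGRP library was above every one of the 12 others, the highest of which was at 46.5 CPM. The fitted log2 fold change was 2.63 (SE 0.269), or 6.21-fold (edgeR, adjusted *P* = 0.00251). Within a genotype it was 2.82 (SE 0.357) in WT and 2.44 (SE 0.398) in *Pac1-/-* libraries, with adjusted *P* values of 0.233 and 0.178 by edgeR in the fits of 2 against 2.

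*Gadd45g*, the third GADD45 gene, lies at chr13:51846678-51848468 (GRCm38, plus strand, 1173 exonic bases). It was at 77.7 and 105 CPM in the WT CGRP libraries and at 141 and 130 CPM in the *Pac1-/-* CGRP libraries. In the IL-33 libraries it was at 70.1 and 41.5 CPM in the WT and at 39.0 and 18.8 CPM in the *Pac1-/-* libraries. The groups did not overlap, but the gap between the highest IL-33 and the lowest CGRP library was small, and the difference (log2 fold change 1.53, SE 0.421) did not pass the cutoff after adjustment (edgeR, adjusted *P* = 0.135). It passed with DESeq2 (adjusted *P* = 0.0280), without the filter on low counts (edgeR, adjusted *P* = 0.00704), and with all 16 libraries in 1 fit (edgeR, adjusted *P* = 0.0398).

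*Gadd45a*, the p53 target of the family, is annotated at chr6:67035096-67037457 (GRCm38, minus strand). Of its exonic bases, 337 are shared with *E230016M11Rik* on the opposite strand. The use of strand in the counting is not stated, so reads on these bases cannot be assigned to either gene. It ranged from 0.156 to 6.34 CPM in 15 libraries and was at 23.5 CPM in the remaining library, WT CGRP replicate 2. Its fitted log2 fold change with CGRP was 1.75, and 0.75 without that library.

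Of the 3 GADD45 genes, 1 thus passed the test for CGRP, and the DNA before their start sites is shown to set the family's promoters side by side (RefSeq starts, GRCm38.p6, bases inside the annotated gene left out). *Gadd45b* is chr10:80929841-80930072 on the plus strand, *Gadd45g* is chr13:51846425-51846674 on the plus strand, and *Gadd45a* is chr6:67037458-67037657 on the minus strand, each written 5′ to 3′. Capitals mark the TATA box (TATAAA), the CCAAT box, and the E-box (CACGTG), read on either strand.
Gadd45b: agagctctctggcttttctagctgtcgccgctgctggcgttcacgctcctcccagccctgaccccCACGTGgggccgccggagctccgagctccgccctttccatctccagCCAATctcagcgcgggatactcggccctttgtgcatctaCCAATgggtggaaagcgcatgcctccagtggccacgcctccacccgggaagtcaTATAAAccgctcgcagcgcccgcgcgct
Gadd45g: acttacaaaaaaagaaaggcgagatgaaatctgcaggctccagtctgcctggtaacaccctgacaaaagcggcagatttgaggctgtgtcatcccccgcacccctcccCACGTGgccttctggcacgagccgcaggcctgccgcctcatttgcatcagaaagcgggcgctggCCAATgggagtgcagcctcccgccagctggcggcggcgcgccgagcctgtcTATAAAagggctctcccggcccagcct
Gadd45a: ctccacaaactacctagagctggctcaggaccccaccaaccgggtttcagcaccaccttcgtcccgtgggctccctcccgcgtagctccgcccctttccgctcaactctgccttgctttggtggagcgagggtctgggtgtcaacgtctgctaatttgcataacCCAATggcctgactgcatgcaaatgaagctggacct

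In these windows *Gadd45b* held a TATAAA 46 bases before the start and *Gadd45g* 27 bases before it, while the *Gadd45a* window stops 51 bases before the start and so leaves out both of these positions. Among all 32817 RefSeq promoters, 12.4% held TATAAA in the 250 bases before the start. CACGTG stood 185 bases before the *Gadd45b* start and 142 bases before the *Gadd45g* start, and in 6.02% of all promoters. CCAAT was found in all 3 windows and in 33.8% of all promoters. The cAMP response element TGACGTCA (1.55% of all promoters), its shorter form TGACG (17.7%, which every TGACGTCA contains), the AP-1 site TGANTCA (6.75%), 1 exact form of the κB site (0.14%), the CArG box bound by serum response factor (1.47%), and the EGR sites GCGTGGGCG and GCGGGGGCG (3.06%) were not found in these windows, nor in those of *Egr2*, *Ier3*, and *Ier5*. These are matches of letters and no evidence of binding or of its absence. For *Egr2*, only the most upstream of its 5 RefSeq entries was searched, so the others may hold such sites. The searches marked by capitals were chosen after the sequences had been seen.

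*Egr1*, *Egr2*, *Ier3*, and *Ier5* gave smaller or more scattered values with CGRP. *Ier3* (chr17:35821684-35822923, a gene of stress and survival signaling) had a log2 fold change of 0.66 and *Ier5* (chr1:155096361-155099636, 1 exon, an activator of heat shock factor) of 0.15. *Ier3* was at 87.7 to 117 CPM in the CGRP libraries and at 38.2 to 102 CPM in the IL-33 libraries, so that these overlapped. *Ier5* reached its highest level, 117 CPM, in *Pac1-/-* IL-33 replicate 2, a library with the highest TMM factor of all (1.25), and was at 37.9 to 102 CPM in the 15 others. *Egr1* had a log2 fold change of 1.33.

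**Figure D2:**
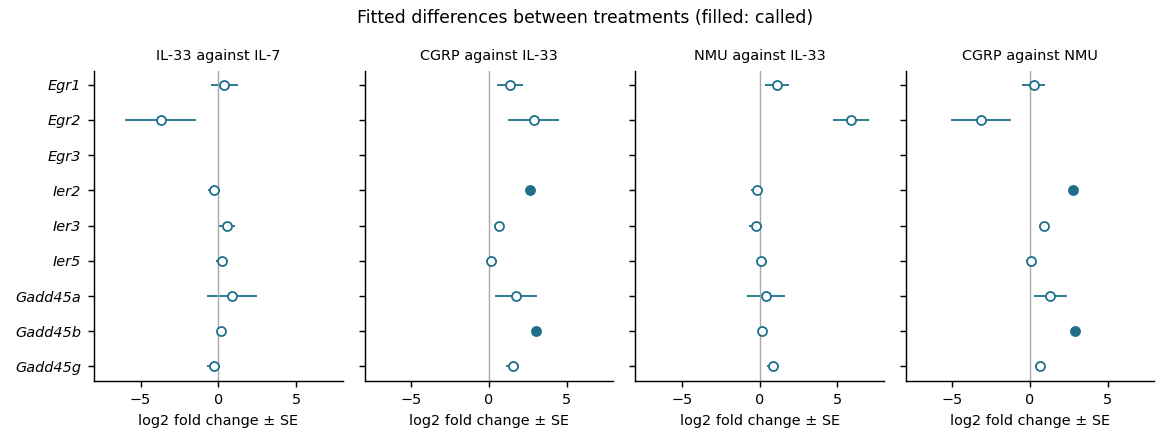
The x axis of each panel gives the log2 fold change of 8 genes from edgeR, with its SE as a bar, for 4 comparisons between treatments over both genotypes. The SE is an approximation derived from the F statistic of the test. Filled points passed the cutoff, which were *Ier2* and *Gadd45b* in the comparisons of CGRP with IL-33 and with NMU. The bars of *Egr2* and *Gadd45a* are wide beside those of *Gadd45b*.

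The comparison of NMU with IL-33 gave another pattern. *Egr2* was the member with the smallest *P*, and no member passed the cutoff. Of all 12567 genes tested, 13 passed it, all higher, or 0.103%, and 972 had an unadjusted *P* under 0.05. *Egr2*, a partner of EGR3 in restraining lymphocyte activation, lies at chr10:67535475-67542188 (GRCm38, plus strand). It had 48 and 105 counts in the WT NMU libraries and 84 and 131 counts in the *Pac1-/-* NMU libraries, or 7.08 to 11.9 CPM. In the IL-33 libraries it had 6 and 4 counts in WT and 1 and 0 counts in *Pac1-/-* ILC2s, or at most 0.441 CPM. The 4 NMU libraries thus lay above the 4 IL-33 libraries, which holds for 2.56% of all genes tested and for no other member. *Egr2* met the filter on low counts only through its NMU libraries, so this lack of overlap is no separate support for a difference.

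The ratio of mean *Egr2* levels between NMU and IL-33 was 43.2, and the fitted log2 fold change was 5.88 (SE 1.17), a value that depends on the prior count because the IL-33 libraries held 11 counts together. Its unadjusted *P* was 0.00039, and it missed the cutoff after adjustment over all genes (edgeR, adjusted *P* = 0.175). It passed with DESeq2 (adjusted *P* = 7.57e-10) and without the filter on low counts (edgeR, adjusted *P* = 0.00579). In *Pac1-/-* libraries alone, the log2 fold change was 7.91 (it depends on the prior count too), and in WT libraries alone it was 4.47 (edgeR, adjusted *P* = 0.482 and 0.870). The part of the epithelial genes of the WT NMU libraries in this difference was not tested. The levels with NMU were nearly the same in the genotypes, at 9.49 ± 3.41 CPM for WT and 9.84 ± 2.75 CPM for *Pac1-/-* (SD, n = 2).

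Of the 8 members, *Egr2* and *Gadd45g* had an unadjusted *P* under 0.05 with NMU. *Gadd45b* had a log2 fold change of 0.15 and *Ier2* of -0.15, and their NMU libraries overlapped the IL-33 libraries. *Gadd45g* had 0.89 and *Egr1* 1.10, which became 2.23 without WT IL-33 replicate 1. For *Ier3*, *Ier5*, and *Gadd45a*, the values were -0.26, 0.11, and 0.44. The median of the 8 was 0.29, where that of all genes was -0.07.

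*Egr2* with CGRP was high in the WT libraries alone, a difference that fell short of the cutoff. It had 56 and 101 counts in the WT CGRP libraries (5.02 and 11.0 CPM), close to its NMU levels, and 0 and 1 count in the *Pac1-/-* CGRP libraries, under the floor of 3 counts. In WT ILC2s, the ratio of mean levels between CGRP and IL-33 was 19.2. In *Pac1-/-* ILC2s, *Egr2* was at or under the floor with IL-33 and with CGRP, and it was detected there with IL-7 (6 and 62 counts) and with NMU. The genotypes did not overlap with CGRP, as for 39% of all genes tested, and *Egr2* had the smallest *P* of the members in that comparison (0.0286), but it did not pass the cutoff after adjustment (edgeR, adjusted *P* = 0.552, log2 fold change -6.76 with an SE of 2.13, which again depends on the prior count). In this comparison *Egr2* met the filter on low counts only through the WT libraries, so its lack of overlap and its *P* are no separate support. None of 10912 genes passed there, or 0%, where 822 had an unadjusted *P* under 0.05. DESeq2 called 329 genes in this comparison, and *Egr2* was just short of it (adjusted *P* = 0.0521). The same *Pac1-/-* CGRP libraries hold the B cell markers, whose part in this difference was not tested.

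**Figure D3:**
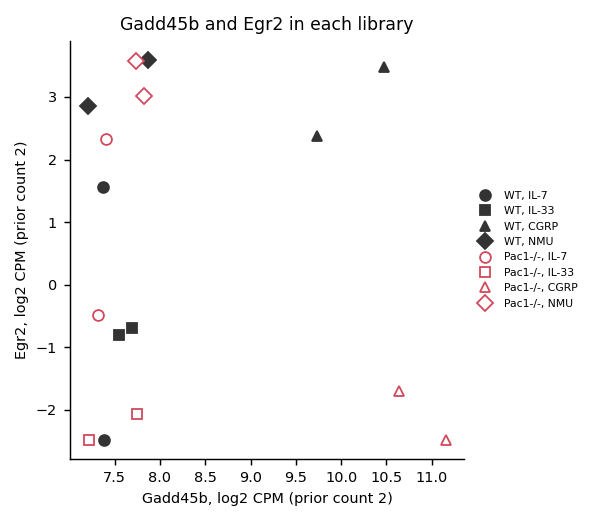
Each point is a library, with *Gadd45b* on the x axis and *Egr2* on the y axis, both in log2 CPM (prior count 2). Filled black symbols are WT and open red symbols *Pac1-/-*, and the shape gives the treatment. The 4 CGRP libraries lie to the right, with the 2 WT libraries high and the 2 *Pac1-/-* libraries low in *Egr2*, and the 4 NMU libraries lie at the upper left.

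*Egr1*, the most abundant EGR gene here and the prototype of the ERK-induced early genes, lies at chr18:34859823-34864984 (GRCm38, plus strand). It was at 2.15 and 5.73 CPM with IL-7, 12.9 and 0.986 CPM with IL-33, 18.1 and 36.1 CPM with CGRP, and 15.3 and 3.85 CPM with NMU in WT ILC2s. In *Pac1-/-* ILC2s it was at 10.9 and 14.0 CPM with IL-7, 18.5 and 5.94 CPM with IL-33, 14.8 and 21.6 CPM with CGRP, and 35.1 and 39.6 CPM with NMU. Libraries of the same group differed widely in WT ILC2s, as did the *Pac1-/-* IL-33 libraries. Only the IL-7 and NMU libraries did not overlap between genotypes, as for 34% and 36.6% of all genes tested. With NMU, *Egr1* had the smallest *P* of the members between genotypes (unadjusted *P* = 0.0381), with a log2 fold change of 1.94 (SE 0.752), and did not pass the cutoff (edgeR, adjusted *P* = 0.928). The WT NMU libraries carry *Sftpc*, *Scgb1a1*, and *Lyz2*, and the part of these in the difference was not tested.

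With IL-33 added to IL-7, no member passed the cutoff and 0 of 8 had an unadjusted *P* under 0.05, and 6 of 12980 genes, or 0.0462%, passed it. The log2 fold changes ran from -3.72 for *Egr2* to 0.89 for *Gadd45a*, with a median of 0.20 (0.09 for all genes). *Egr2* had the smallest *P* (0.134), with 41, 0, 6, and 62 counts in the IL-7 libraries, so that its IL-7 libraries reached below and above the IL-33 libraries. *Gadd45b* differed by 0.19 on the log2 scale, with 160 to 169 CPM in the 4 IL-7 libraries. *Ier2* (-0.28), *Gadd45g* (-0.30), *Ier5* (0.21), *Egr1* (0.38), and *Ier3* (0.56) overlapped between these treatments too.

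Set against each other, CGRP and NMU differed in the same 2 genes, in a comparison that shares its CGRP libraries with the comparison above. *Gadd45b* was higher with CGRP by 2.88 on the log2 scale (SE 0.266, 7.38-fold; edgeR, adjusted *P* = 0.00178) and *Ier2* by 2.79 (SE 0.304, 6.91-fold; edgeR, adjusted *P* = 0.00264). Of 12834 genes, 310 were higher with CGRP, or 2.42%. *Ier3* was also higher in all 4 CGRP libraries than in all 4 NMU libraries (31.4 to 79.7 CPM with NMU), as were *Gadd45b* and *Ier2* and 8.02% of all genes tested, with a log2 fold change of 0.92 that missed the cutoff (SE 0.322; edgeR, adjusted *P* = 0.165). *Egr2* had a negative fitted value, -3.18 on the log2 scale, with overlap between the groups. The fitted values of *Gadd45g* (0.64), *Egr1* (0.23), *Ier5* (0.05), and *Gadd45a* (1.31) did not pass, and for *Egr1* and *Ier5* the mean CPM ran the other way, with a ratio of CGRP to NMU of 0.964 and 0.972.

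Genotype was compared within each treatment and over all 4. No member passed the cutoff in any of these. Over all treatments, 12 of 14979 genes (0.0801%) passed, and *Ier2* had the smallest *P* of the members, with a log2 fold change of 0.39 (SE 0.215; edgeR, adjusted *P* = 0.853). With IL-7, 1 of 10912 genes (0.00916%) passed, and *Egr1* came closest (log2 fold change 1.66, SE 1.04; edgeR, adjusted *P* = 0.9999). With IL-33, 1 of 11448 genes (0.00874%) passed, and *Gadd45g* had -1.01 (SE 0.555; edgeR, adjusted *P* = 0.997). With NMU, 3 of 10621 genes (0.0282%) passed. With CGRP, *Gadd45b* was higher in *Pac1-/-* libraries by 0.78 on the log2 scale and its genotypes did not overlap, short of the cutoff. The same lack of overlap was found for 5 of 8 members and for 39% of all genes tested there.

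The test of whether CGRP acted differently in the genotypes (the interaction) gave no call among all genes, or 0%, and the same held for IL-33 and NMU. *Gadd45g* had the smallest *P* for CGRP, its increase being larger in *Pac1-/-* than in WT libraries by 1.59 on the log2 scale (SE 0.639; edgeR, unadjusted *P* = 0.0368, adjusted *P* = 0.853). The ratio of mean *Gadd45g* levels between CGRP and IL-33 was 4.68 in *Pac1-/-* and 1.64 in WT ILC2s, with 1 *Pac1-/-* IL-33 library as low as 18.8 CPM. For *Gadd45b* the ratio was 10.7 in *Pac1-/-* and 5.78 in WT ILC2s, with an interaction of 0.96. *Egr2*, high with CGRP in WT libraries alone, had an interaction of -3.42 for CGRP (SE 3.32; edgeR, adjusted *P* = 0.96), which depends on the prior count. *Gadd45g* (-1.22, SE 0.741; edgeR, adjusted *P* = 0.809) had the smallest *P* for IL-33, and *Egr2* (3.38, SE 1.74; edgeR, adjusted *P* = 0.773) for NMU. At an unadjusted *P* under 0.05, edgeR gave 734 genes for IL-33, 719 for CGRP, and 801 for NMU, and DESeq2 called 210, 241, and 104.

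The genes around these families were taken from 5 lists with 62 distinct genes, of which 58 were tested for CGRP against IL-33. There, 21 rose and 0 fell. With NMU, 0 of 57 passed in either direction by edgeR (9 had an unadjusted *P* under 0.05), and with IL-33 against IL-7, 0 of 57 (8 had an unadjusted *P* under 0.05). The lists hold genes known to respond early to many stimuli, and nothing particular to a list is read from these counts.

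**Figure D4:**
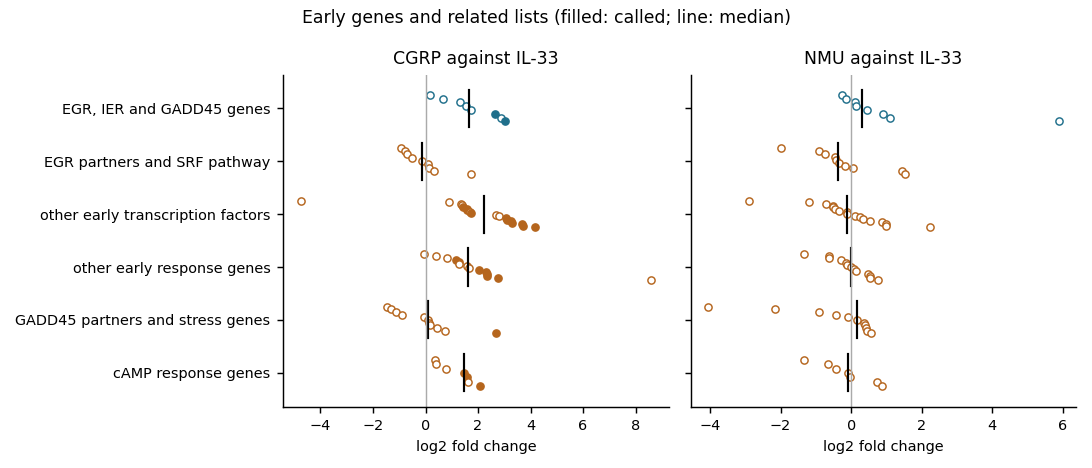
The x axis gives the log2 fold change of each tested gene for CGRP against IL-33 (left) and NMU against IL-33 (right), in rows by list, with the 8 members on top. Filled points passed the cutoff and black lines are medians. With CGRP, 11 of 18 early transcription factors, 7 of 14 early response genes and 3 of 7 cAMP response genes are filled, and with NMU none is.

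Of the EGR partners and the SRF pathway, 0 of 9 tested genes passed with CGRP, with a median log2 fold change of -0.13. The EGR corepressors *Nab1* and *Nab2* had -0.77 and 1.73, and the SRF partner *Elk4* had 0.30. *Nab2*, an EGR target in other cells, was at 0 to 6.90 CPM with CGRP and at 0 to 4.21 CPM with IL-33. With NMU, 0 of 10 passed, with a median of -0.38, and *Mrtfa*, an SRF coactivator, had the smallest *P* at -1.99.

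Of the other early transcription factors, 11 of 18 tested rose with CGRP and 0 fell, with a median log2 fold change of 2.21. The AP-1 genes *Fos* (3.73, adjusted *P* = 0.000197), *Fosb* (3.69, adjusted *P* = 0.000605), and *Junb* (3.12, adjusted *P* = 0.00234), and the stress factor *Atf3* (3.28, adjusted *P* = 0.00251; all by edgeR) had the smallest *P*. *Fos* was at 413 to 581 CPM with CGRP and at 24.3 to 49.4 CPM with IL-33. With NMU, 0 of 17 passed, and *Fosl1* (2.22), *Nr4a1* (0.88), *Myc* (0.98), and *Nr4a3* (0.98) came closest.

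Of the other early response genes, 7 of 14 tested rose with CGRP and 0 fell, with a median of 1.60. They included the antiproliferative *Btg2* (2.34), the regulators of G protein signaling *Rgs1* (2.34) and *Rgs2* (2.30), and the mRNA decay factor *Zfp36* (2.75). *Rgs2* was at 3880 to 5941 CPM with CGRP and at 654 to 1240 CPM with IL-33. With NMU, 0 of 13 passed, with *Rgs1* at 0.75 and the NF-κB inhibitor *Tnfaip3* at -0.61.

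Of the GADD45 partners and stress genes, 1 of 11 tested rose with CGRP, *Ppp1r15a* (GADD34, which restores translation after stress), with a log2 fold change of 2.68 (SE 0.377; edgeR, adjusted *P* = 0.0128). *Trp53* (-1.33), its inhibitor *Mdm2* (-1.13), and the cell cycle inhibitor *Cdkn1a* (0.74) did not pass, and the list's median was 0.09. With NMU, 0 of 11 passed. Of the cAMP response genes, 3 of 7 rose with CGRP, the EGFR ligand *Areg* (2.09), the phosphodiesterase *Pde4b* (1.45), and *Nr4a1* (1.60), which the list of transcription factors also holds. *Sik1* (1.60), a kinase of cAMP feedback, did not pass. With NMU, 0 of 7 passed, with *Areg* at 0.74.

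In each family, the genes most like its highest member in CPM were sought among the 4872 genes averaging 20 CPM or above, by Pearson's correlation of log2 CPM over the 16 libraries, which share treatments and are no independent points. For *Gadd45b*, the nearest were *Rps3* (r = 0.96), *Rgs2* (r = 0.96), *Nfkbia* (r = 0.95), *2310001H17Rik* (r = 0.95), and *Fam122a* (r = 0.95). These values rest in part on the 4 CGRP libraries: over the 12 others, r was 0.74 for *Nfkbia*, 0.59 for *Rps3*, 0.03 for *Rgs2*, and -0.39 for *2310001H17Rik*. For *Ier5*, the nearest were *Rpl12* (r = 0.83), *Satb1* (r = 0.80), *Zbtb11* (r = 0.79), *Ptpn7* (r = 0.77), and *Hnrnpd* (r = 0.74). For *Egr1*, they were *Trmt10c* (r = 0.81), *Atl2* (r = 0.74), *Mcu* (r = 0.69), *Il2* (r = 0.69), and *Iqgap2* (r = 0.67).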

How the data were processed

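The data are bulk mRNA-Seq of lung ILC2s. Per the study's methods, the authors amplified full-length cDNA of about 500 cells per library, aligned paired-end reads to mm10 with HISAT2, and deposited raw read counts per Ensembl gene without normalization. The counting tool, its annotation and use of strand, and the handling of duplicate reads are not given in the sources used here, nor whether the 2 libraries of a group came from separate mice, so *P* values measure the spread between libraries, which may be technical. Total counts per library were 6764992 to 15963357.

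Groups and replicate numbers came from the sample labels. Positions and symbols came from GENCODE M21 (GRCm38) and promoters from RefSeq (GRCm38.p6), where 6 of the 9 members were matched outside chromosome 18, with *Ier2* and *Egr3* not shown. Counts were tested in R 4.3.3 with edgeR 4.0.16 (TMM, filterByExpr by group, quasi-likelihood test). The SE given with an edgeR value is the absolute log2 fold change divided by the square root of the test's F statistic. It is not an output of edgeR and is an approximation. Each of 12 comparisons was fitted on its own libraries, with Benjamini-Hochberg adjustment over all genes tested. Treatments were compared over both genotypes with genotype as a covariate. Genes were called at a fold change above 1.5 and adjusted *P* under 0.05. log2 CPM used a prior count of 2, and levels per kilobase used exonic length. The code was tested on simulated data.

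The members, the lists and the tests were chosen with earlier results of these data known. All members were named, with up to 4 genes of the smallest *P* per list and comparison with IL-33 (1 of these genes is not reported here), and the 5 genes most like the highest member of each family. The alternatives tried were DESeq2 1.42.0, RLE scaling in edgeR, unfiltered genes, a block for the replicate number, a joint fit of 16 libraries, each library left out, Spearman's correlation, and, added after the data were seen, each genotype alone. The 28 correlations of the differences between replicates 2 and 1 across groups were -0.0649 to 0.0393.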

Additional observations from a re-analysis of the deposited data

Results flagged for a closer look

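Among 35 sets of 4 libraries of the same treatment tested for a library that stands apart, 3 were flagged, all in *Egr3*. In each, 1 WT library had a few counts and the other 3 had 0, a pattern that is flagged whatever the count, so that the usual chance rate of about 1 in 20 does not apply. The level was 0.554 CPM (6 counts) in WT IL-7 replicate 2, 0.296 CPM (3 counts) in WT IL-33 replicate 2, and 0.218 CPM (2 counts) in WT CGRP replicate 2. The IL-33 and CGRP values are at or under the floor of 3 counts.

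*Egr1* differed in direction between the genotypes when CGRP was set against NMU. Both WT CGRP libraries were above both WT NMU libraries, with a ratio of means of 2.83, and both *Pac1-/-* CGRP libraries were below both *Pac1-/-* NMU libraries, with a ratio of means of 0.486. The difference between these ratios was not tested. In WT ILC2s the gap was narrow, with the lowest CGRP library at 18.1 CPM and the highest NMU library at 15.3 CPM. The share of all genes that separate in this way was not counted. Between genotypes with IL-7, NMU, or CGRP, 2 libraries of each did not overlap for 34% to 39% of all genes tested. The WT NMU libraries are those with *Sftpc*, *Scgb1a1*, and *Lyz2* and the *Pac1-/-* CGRP libraries those with B cell markers, whose part in this was not tested.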

How the results depend on the processing

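*Gadd45b* and *Ier2* stayed past the cutoff for CGRP against IL-33 and against NMU under all 13 alternatives fixed at the start, with log2 fold changes of 2.80 to 3.25 for *Gadd45b* and 2.50 to 2.84 for *Ier2* against IL-33. With 1 genotype at a time, added after the data were seen, 0 members passed in these comparisons in WT or in *Pac1-/-* libraries, in fits of 2 against 2 that called 0 genes, or 1 for CGRP against NMU in *Pac1-/-* libraries. For CGRP against IL-33, DESeq2 called 4 members (with *Egr2* and *Gadd45g* added), and for NMU against IL-33, 1 member (*Egr2*) was called by DESeq2 and without the filter. In the other comparisons 0 members were called under each alternative run.

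Correlations up to 0.0393 cannot tell if replicate numbers pair libraries, as same-treatment libraries reached only 0.140 (median r). With the number as a block, 2 members passed for CGRP against IL-33 and 2 against NMU, as without it. The log2 fold change of *Egr1* for IL-33 against IL-7 became -0.13. The block moved the count of all genes called from 230 to 80 for CGRP against IL-33, from 495 to 208 for CGRP against NMU, from 6 to 0 for IL-33 against IL-7, and from 1 to 0 for genotype with IL-7.

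The counts of all genes, in the order IL-33 against IL-7, CGRP against IL-33, NMU against IL-33, and CGRP against NMU, were 520, 1241, 310, and 1932 with DESeq2 and 201, 639, 77, and 1102 without the filter. All 16 libraries in 1 fit gave 413, 28, and 820 for the last 3. Between genotypes, DESeq2 called 151 genes over all treatments, 160 with IL-7, 112 with IL-33, 329 with CGRP, and 93 with NMU, and the unfiltered fit 62, 28, 18, 82, and 32. All 16 libraries gave 16 with CGRP. For the interactions with IL-33, CGRP, and NMU, DESeq2 called 210, 241, and 104 genes and the unfiltered fit 20, 44, and 20. With each library left out, 60 to 191 genes were called for CGRP against IL-33, where each library but WT IL-33 replicate 2 moved the count by more than 1.5 times, 157 to 336 for CGRP against NMU, where each but WT NMU replicate 2 did (157 without *Pac1-/-* NMU replicate 2), 0 to 5 for IL-33 against IL-7, 0 for genotype with IL-7 or IL-33, and 1 to 7 for genotype with NMU. The cause of these differences was not tested.

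No value that changed sign had passed the cutoff. With each library left out, log2 fold changes ran from -0.74 to 0.71 for *Egr1*, -0.25 to 0.44 for *Ier5*, and -0.077 to 2.24 for *Gadd45a* (IL-33 against IL-7), from -0.058 to 0.62 for *Ier5* (CGRP against IL-33), from -0.51 to 0.071 for *Ier2*, -0.61 to 0.079 for *Ier3*, -0.17 to 0.44 for *Ier5*, and -0.58 to 1.31 for *Gadd45a* (NMU against IL-33), and from -0.37 to 0.68 for *Egr1* and -0.19 to 0.21 for *Ier5* (CGRP against NMU). Without a change of sign, the fold itself, not its log2, moved by more than 1.5 times from the main fit for *Egr1*, *Gadd45a*, and *Egr2*. The log2 fold changes ran from 0.73 to 2.23 for *Egr1* (NMU against IL-33). For *Gadd45a* they were 0.75 to 2.71 (CGRP against IL-33) and 0.51 to 1.77 (CGRP against NMU). For *Egr2* they were -4.80 to -2.48 (IL-33 against IL-7), 2.25 to 3.97 (CGRP against IL-33), 5.29 to 6.51 (NMU against IL-33), and -5.01 to -1.63 (CGRP against NMU). In WT libraries alone, values turned to -0.037 for *Ier5*, -0.67 for *Gadd45a*, and 0.31 for *Gadd45g* (IL-33 against IL-7) and to -0.087 for *Ier5*, 0.20 for *Ier2*, and -0.035 for *Gadd45b* (NMU against IL-33). In *Pac1-/-* libraries alone, they turned to -0.068 for *Egr1* and 0.13 for *Ier2* (IL-33 against IL-7), -0.096 for *Ier5* (CGRP against IL-33), -0.54 for *Gadd45a* (NMU against IL-33), and -0.39 for *Ier5* and -1.01 for *Egr1* (CGRP against NMU).

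With Spearman's in place of Pearson's correlation, 1 of the 5 genes nearest to *Gadd45b*, 4 of those nearest to *Ier5*, and 3 of those nearest to *Egr1* were shared. The lowest libraries of *Egr2*, *Egr3*, and *Gadd45a* are at or near the floor, and the part of sequencing depth in this was not tested.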
